A study of Mus musculus with 10 samples.

Results

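The genes described here are 39 genes of the interferon response and of MHC class I antigen presentation, out of 31053 genes counted, and all 39 were in the files. They were taken by name and fall into 20 genes known chiefly as targets of type I interferon, 17 that respond strongly to interferon gamma, and the 2 chains of the type I interferon receptor. The groups follow textbook emphasis, and many of the genes respond to both kinds of interferon. Neither group is thus a measure of a single kind of interferon. The 17 comprise 3 regulators, 5 immunity-related GTPases and 9 genes of MHC class I and its peptide supply. The mice were BXD2, an inbred line that develops autoantibodies and germinal centers (GCs) without immunization, and their spleen cells were sequenced singly in droplets from the 5' ends of transcripts. One group was 3 BXD2-p19-/- mice, which lack p19, a subunit of IL-23 (mice 1 and 2 female, mouse 3 male), and the other was 2 female BXD2-WT mice. Both groups share the BXD2 background, and ages and treatments are not given in the labels. The labels name spleen B and T cells, and the series' design text names GC B cells. Il23a, which encodes p19, had 0 unique molecular identifiers (UMIs) in each of the 5 libraries, which allows up to 0.166 to 0.389 CPM (a gene's share of all UMIs, from 3 counts per library), so its transcript checks no genotype label here. Stat2, one of the 39, lies at chr10:128270498-128292853 (GRCm38.p6), 3287 bases from Il23a at chr10:128296140-128298084.

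Interferons act through a pair of related routes. Type I interferons bind the receptor made of Ifnar1 and Ifnar2, and the kinases they activate lead to a factor holding Stat2 and Irf9 that binds the interferon-stimulated response element (ISRE). Interferon gamma binds its own receptor and acts on gamma-activated sites (GAS), and then through Irf1, a transcription factor that itself binds ISRE-like sequences. Products of the type I targets sense or restrict viruses. Interferon gamma targets include the immunity-related GTPases, which act on vacuoles holding pathogens, and the transporters, proteasome subunits and heavy chains that put peptides on MHC class I. In lupus-like mouse strains both interferon families are known to act on germinal center responses.

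Promoter windows of 250 bases before to 50 after the gene start show how these routes are written in the genome. RefSeq windows (GRCm38.p6) were found for 32 of the 39 genes, and not for Nlrc5, Iigp1, Tap2, Mx1, Usp18, Rtp4 and Zbp1. An ISRE core, spelled GAAA, then NN, then GAAA, on either strand, was present in windows of 14 of the 32 genes, against 3.99% of 27025 genes with a window. A GAS core, TTCNNNGAA, which reads the same on both strands, was present in 10 of the 32, against 9.55% of all genes. Of 16 type I genes with a window 9 held the ISRE core, as did 3 of 4 immunity-related GTPases, against 1 of 8 class I and loading genes. These matches describe letters in a window and are not evidence of binding. The 6 windows below belong to genes on which the later values turn, with the matches in capitals.
Irgm1, chr11:48871371-48871670 (minus strand): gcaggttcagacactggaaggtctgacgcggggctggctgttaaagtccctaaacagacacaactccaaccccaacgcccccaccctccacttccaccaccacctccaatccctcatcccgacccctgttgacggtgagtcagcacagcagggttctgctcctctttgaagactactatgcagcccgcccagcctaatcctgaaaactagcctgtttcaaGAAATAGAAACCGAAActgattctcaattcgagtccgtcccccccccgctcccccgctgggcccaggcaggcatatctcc
Igtp, chr11:58199306-58199605 (plus strand): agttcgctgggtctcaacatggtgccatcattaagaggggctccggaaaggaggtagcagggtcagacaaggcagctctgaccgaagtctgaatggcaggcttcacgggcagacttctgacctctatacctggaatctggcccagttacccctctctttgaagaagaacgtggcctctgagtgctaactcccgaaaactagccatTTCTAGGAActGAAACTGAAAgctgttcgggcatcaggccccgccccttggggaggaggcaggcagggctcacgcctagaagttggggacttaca
Irgm2, chr11:58214727-58215026 (plus strand): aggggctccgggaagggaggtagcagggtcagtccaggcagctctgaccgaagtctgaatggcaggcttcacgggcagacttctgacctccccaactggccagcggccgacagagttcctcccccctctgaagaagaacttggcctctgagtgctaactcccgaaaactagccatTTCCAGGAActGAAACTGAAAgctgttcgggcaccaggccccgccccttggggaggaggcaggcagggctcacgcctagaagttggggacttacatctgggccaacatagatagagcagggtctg
B2m, chr2:122147437-122147736 (plus strand): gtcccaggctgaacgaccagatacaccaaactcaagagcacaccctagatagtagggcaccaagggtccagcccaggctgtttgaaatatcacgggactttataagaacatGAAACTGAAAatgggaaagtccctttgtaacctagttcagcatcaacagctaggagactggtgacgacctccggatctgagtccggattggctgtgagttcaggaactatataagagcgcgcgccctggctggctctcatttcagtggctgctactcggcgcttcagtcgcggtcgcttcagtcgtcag
Psmb8, chr17:34197945-34198244 (plus strand): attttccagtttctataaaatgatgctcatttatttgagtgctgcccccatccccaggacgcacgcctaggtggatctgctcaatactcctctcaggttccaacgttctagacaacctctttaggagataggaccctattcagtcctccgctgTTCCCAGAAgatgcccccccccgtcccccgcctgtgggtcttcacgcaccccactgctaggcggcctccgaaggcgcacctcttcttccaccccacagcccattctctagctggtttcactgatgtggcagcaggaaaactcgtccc
Isg15, chr4:156200769-156201068 (minus strand): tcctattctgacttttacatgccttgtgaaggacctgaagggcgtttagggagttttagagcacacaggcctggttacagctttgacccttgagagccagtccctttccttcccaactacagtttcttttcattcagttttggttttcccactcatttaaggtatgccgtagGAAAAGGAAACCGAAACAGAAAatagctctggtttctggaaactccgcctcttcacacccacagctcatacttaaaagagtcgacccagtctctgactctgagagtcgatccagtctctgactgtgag
Irgm1 had overlapping ISRE cores starting 30 and 24 bases before the gene start. Igtp and Irgm2, neighbours on chromosome 11, each had a GAS core directly before an ISRE core, at 45 and 34 bases in Igtp and at 75 and 64 bases in Irgm2. The B2m window held an ISRE core at 139 bases and no GAS core. The Psmb8 window was the other way round, with a GAS core at 97 bases and no ISRE core. The Isg15 window held 3 overlapping ISRE cores, at 78, 72 and 66 bases.

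After removal of barcodes with over 10% mitochondrial UMIs (891 of 2474 barcodes in p19-/- mouse 1, 140 to 380 in the other libraries) and of doublets, 9200 cells remained, 944 to 2729 per mouse. Clusters were made without the 39 genes and the other pathway genes, and named from marker genes. The classes compared were 3151 GC B-like, 637 mature non-GC B-like (mature B-like below), 1976 follicular helper T (Tfh)-like, 944 regulatory T (Treg)-like, 250 CD8 T-like and 678 myeloid-like cells (565 macrophage or monocyte-like and 113 dendritic-like). Left out of the comparisons were, among others, 512 other CD4 T-like, 496 unnamed B, 284 plasma cell-like and 146 unnamed T cells. Of the 496 unnamed B cells, led by Sox4 and Pcp4, 311 came from p19-/- mouse 1. Myeloid cells are not among the cells the labels name, yet Lyz2 stood at 7741 CPM in them and at 0 to 13.4 in the other 5 classes. Ighd, a mark of naive B cells, stood at 107.0 CPM in mature B-like cells and 3.6 in GC B-like cells, Foxp3 at 387 in Treg-like cells and Cd8b1 at 819.6 in CD8 T-like cells. Marker transcripts of other lineages were also present: B lineage genes summed to 169 and 255 CPM in Tfh-like and Treg-like cells of p19-/- mouse 1, against 23.8 to 67.1 in the other mice. T lineage markers summed to 210.1 to 319 CPM in mature B-like cells. The macrophage and monocyte list summed to 234 to 889 CPM in CD8 T-like cells, where Ly6c2, which CD8 T cells also express, stood at 471 CPM, Ccr2 at 47.7 and Cd68 at 16.1, and Lyz2, C1qa, Adgre1 and Cd5l had 0 UMIs. Levels below are UMIs summed per mouse and class, as CPM scaled between libraries by TMM, and the mouse is the replicate. A CPM is a share of a class's RNA, so fewer cells making a transcript and less transcript per cell cannot be told apart.

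Type I genes and interferon gamma genes ran in different orders across the classes. Summed over the 20 type I genes, the level was 134 ± 8.41 TMM-scaled CPM (SD, n = 5 mice) in GC B-like cells, 280.1 ± 28.7 in mature B-like, 388 ± 22.6 in Tfh-like, 507 ± 28.6 in Treg-like, 557 ± 137 in CD8 T-like and 865 ± 209 in myeloid-like cells. GC B-like cells ranged from 126 to 147 and did not overlap with any other class, whereas Treg-like, CD8 T-like and myeloid-like cells overlapped with one another. Summed over the 17 interferon gamma genes, GC B-like cells were again lowest at 4446 ± 269.7, but the highest were Treg-like cells at 11090.2 ± 585, followed by CD8 T-like at 10304 ± 826 and Tfh-like at 8939 ± 634. Myeloid-like cells, at 7722 ± 1266, lay beside mature B-like cells at 7205 ± 369, and their ranges overlapped. The 9 class I and loading genes made up most of the second sum, 4231 ± 247 of it in GC B-like and 10444 ± 504 in Treg-like cells. The other sub-groups had other orders. The immunity-related GTPases summed highest in CD8 T-like cells, at 427 ± 78.2 against 308 ± 53.4 in Treg-like cells. The regulators summed highest in Tfh-like cells, at 413 ± 29.7 against 379 ± 81.0 in CD8 T-like and 338 ± 57.1 in Treg-like cells. Ranges overlapped between the classes named for each sub-group.

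**Figure D1:**
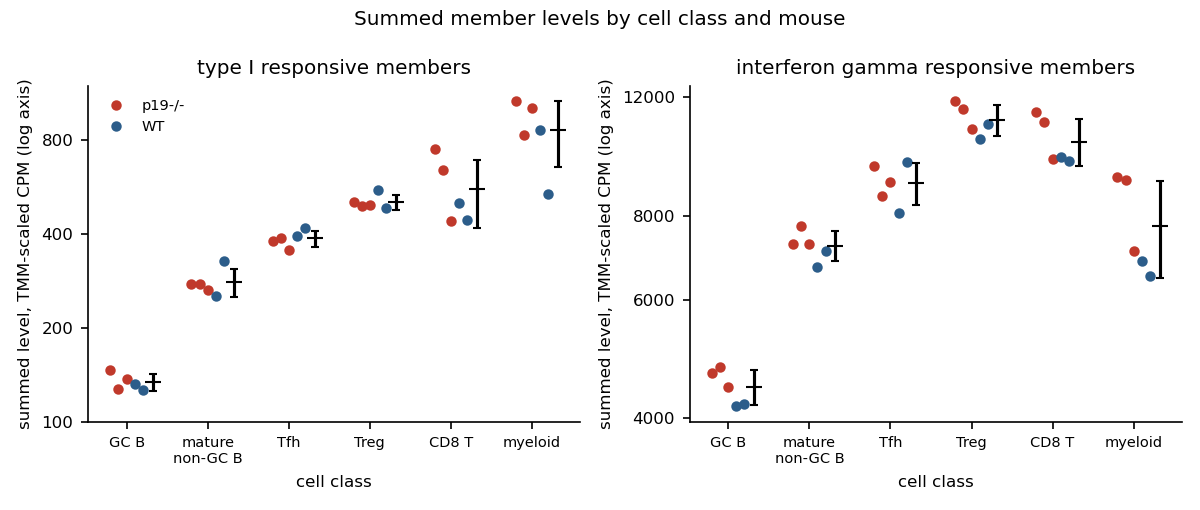
Summed levels (TMM-scaled CPM, log axis) of the type I genes (left) and interferon gamma genes (right) in each cell class, 1 point per mouse, red for p19-/- and blue for WT, with the mean and SD over 5 mice in black. GC B-like cells are lowest in both panels, myeloid-like cells have the highest mean on the left (865) and Treg-like cells on the right.

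Cells of the classes differ in total RNA, and the gap between GC B-like and mature B-like cells is narrower in UMIs per cell. GC B-like cells had a median of 9282 UMIs per cell, mature B-like cells 5556 and myeloid-like cells 1708. Per cell, the interferon gamma genes gave 55.8 UMIs in GC B-like and 56.0 in mature B-like cells, and the type I genes 1.67 and 2.19. Myeloid-like cells held 23.5 interferon gamma and 2.62 type I UMIs per cell. B2m, the light chain shared by all class I molecules, was at 8.67 UMIs per GC B-like cell and 13.0 per mature B-like cell. With each cell thinned to 2000 UMIs, 25.0% of GC B-like cells held at least 1 type I UMI, against 40.3% of mature B-like, 54.5% of Tfh-like, 63.2% of Treg-like, 63.0% of CD8 T-like and 70.5% of myeloid-like cells (means of 5 mice). Thinning left out 378 of 678 myeloid-like cells and 305 of 3151 GC B-like cells for having fewer UMIs. Unthinned, the shares were 68.0%, 74.6%, 72.2%, 81.5%, 86.2% and 59.3% in the same order of classes.

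**Figure D2:**
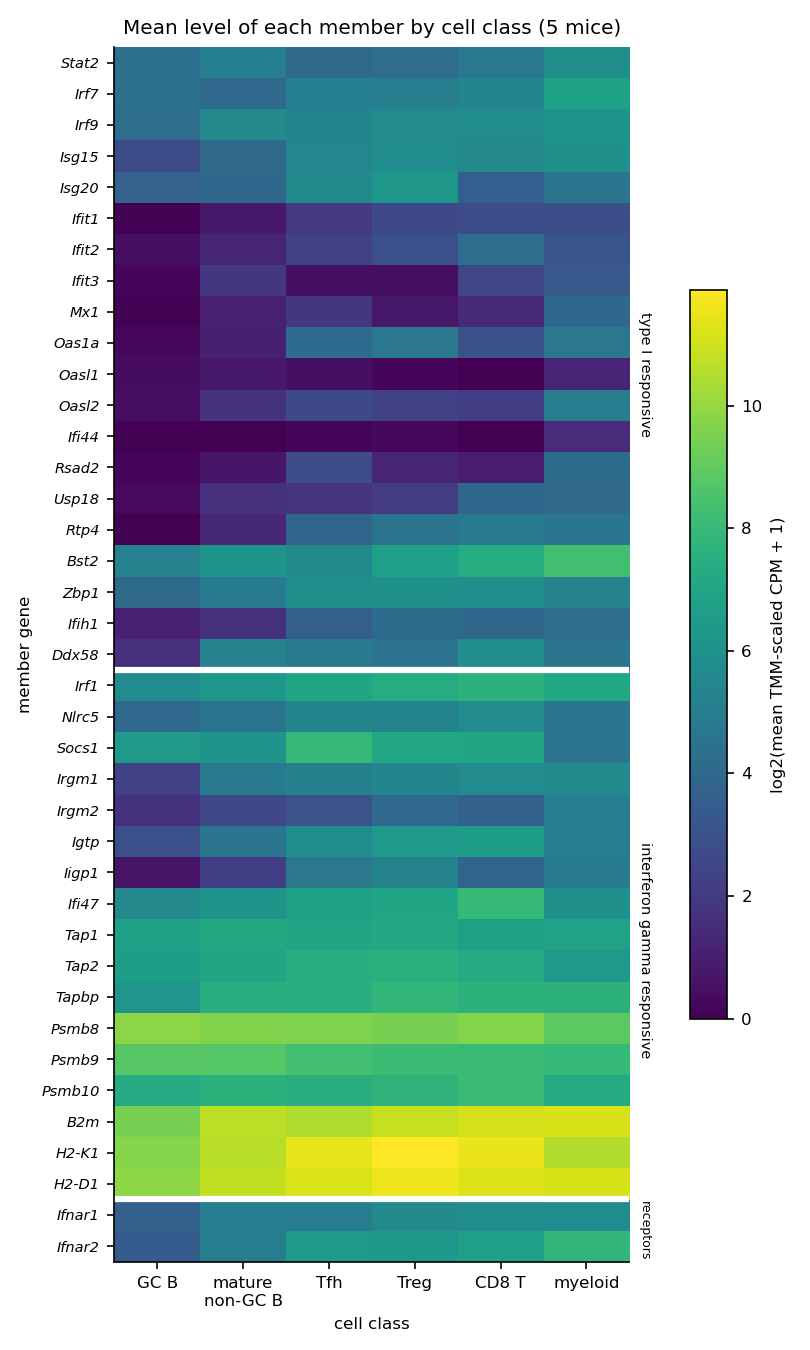
Mean level of each of the 39 genes in each cell class over 5 mice, coloured by log2(TMM-scaled CPM + 1), with white lines between type I genes, interferon gamma genes and receptors. B2m, H2-K1, H2-D1 and Psmb8 are the brightest rows, and the GC B column is the darkest for most type I genes.

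The receptor chains were lowest in GC B-like cells. Ifnar1 was at 12.1 ± 2.43 TMM-scaled CPM there and at 33.1 ± 5.23 in mature B-like, 31.4 ± 5.72 in Tfh-like, 50.9 ± 8.84 in Treg-like, 56.2 ± 7.89 in CD8 T-like and 53.8 ± 11.9 in myeloid-like cells. The last 3 overlapped with one another, and GC B-like cells, at 9.94 to 15.4, overlapped with none. Ifnar2 had a wider span, from 10.1 ± 3.14 in GC B-like cells through 33.1 ± 3.70 in mature B-like, 80.5 ± 7.70 in Treg-like, 83.0 ± 6.33 in Tfh-like and 105 ± 33.9 in CD8 T-like to 226 ± 48.0 in myeloid-like cells. Tfh-like and Treg-like cells were not separated, and the myeloid-like range of 189.9 to 309 lay above all others.

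The regulators each had their own order. Irf1, an early target of interferon gamma, was at 51.4 ± 8.16 in GC B-like, 80.4 ± 16.5 in mature B-like, 127 ± 15.6 in Tfh-like, 134 ± 34.3 in myeloid-like, 163 ± 19.9 in Treg-like and 198 ± 55.5 TMM-scaled CPM in CD8 T-like cells, and the upper 4 classes overlapped. Socs1, which encodes a feedback inhibitor of Janus kinases, was highest in Tfh-like cells at 244 ± 10.0, with a range of 231 to 253 that no other class reached. Irf7, the factor that amplifies type I interferon production, was at 111 ± 50.8 in myeloid-like cells and between 15.6 and 42.6 in the means of the other classes. Stat2, the subunit specific to the type I route, was at 58.8 ± 12.6 in myeloid-like, 33.6 ± 5.96 in mature B-like, 26.3 ± 16.3 in CD8 T-like, 19.5 ± 3.23 in GC B-like, 18.3 ± 4.98 in Treg-like and 16.3 ± 1.54 in Tfh-like cells. The myeloid-like range of 44.9 to 77.3 lay above the mature B-like range of 25.2 to 39.4 but overlapped with CD8 T-like cells at 9.59 to 51.3, and the lower 4 classes overlapped.

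Type I effectors were sparse. Isg15, a ubiquitin-like protein, was at 5.56 ± 1.91 TMM-scaled CPM in GC B-like, 16.5 ± 10.2 in mature B-like, 44.1 ± 5.64 in Tfh-like, 46.6 ± 23.8 in CD8 T-like, 54.8 ± 13.9 in Treg-like and 62.3 ± 52.7 in myeloid-like cells. The myeloid-like mice ran from 21.7 to 140.5, and overlapped with all 3 T cell classes and with mature B-like cells. Ifit1, Mx1 and Ifi44 had 0 UMIs in the 3151 GC B-like cells, which allows up to 0.277 to 0.860 CPM per mouse (3 counts), and Rtp4, a chaperone of surface receptors, had 1 there against 8 in 637 mature B-like cells. Ifi44 and Oasl1 gave at most 5 and 10 UMIs in any class, too few to order the classes. Bst2, which tethers budding virions to the membrane, was the most abundant type I gene in myeloid-like cells at 308 ± 123. Isg20, an exonuclease, broke the pattern, at 76.3 ± 10.6 in Treg-like and 49.0 ± 6.07 in Tfh-like cells and 23.2 ± 14.7 in myeloid-like cells.

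The 3 genes of the class I molecule itself, B2m, H2-K1 and H2-D1, were lowest in GC B-like cells. H2-K1 was at 835 ± 93.4 TMM-scaled CPM there, 1482 ± 330.0 in myeloid-like, 1571 ± 94.5 in mature B-like, 2768 ± 249 in Tfh-like, 2997 ± 239.7 in CD8 T-like and 3782 ± 322 in Treg-like cells, whose range of 3389 to 4106 no other class reached. H2-D1 was at 920.5 ± 79.7 in GC B-like, 1762 ± 95.6 in mature B-like, 2295 ± 387 in myeloid-like, 2365 ± 266 in Tfh-like, 2484 ± 371 in CD8 T-like and 3067 ± 209 in Treg-like cells. B2m kept another order, 689.5 ± 54.9 in GC B-like, 1430.2 ± 125 in Tfh-like, 1681 ± 83.3 in mature B-like, 1833 ± 93.6 in Treg-like, 2203 ± 159 in CD8 T-like and 2272 ± 349 in myeloid-like cells. Of the immunoproteasome subunits, which cut peptides to fit class I, Psmb8 and Psmb9 had their highest means in GC B-like cells. Psmb8 was at 904 ± 31.9 there and 479 ± 58.2 in myeloid-like cells, and Psmb9 at 440.0 ± 18.7 and 251 ± 38.3, both overlapping between GC B-like and mature B-like cells. Psmb10 was lowest in GC B-like and myeloid-like cells, at 159 ± 10.1 and 159 ± 34.8. H2-K1 and H2-D1 are close paralogs with many alleles, and reads of the BXD2 alleles may have been assigned unevenly, so their levels are uncertain.

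Set against mature B-like cells in 1 edgeR fit over the classes with the mouse as a block, GC B-like cells had lower levels of 24 of the 32 members tested and a higher level of 1. By group, 8 of 13 tested type I genes, 14 of 17 interferon gamma genes and both receptor chains were lower. Over all 9519 genes tested, 26.6% were lower and 24.2% higher, with a median log2 fold change of -0.03, against medians of -1.37 for type I and -0.68 for interferon gamma genes. Ddx58, which encodes the RNA sensor RIG-I, was at 1.48, 1.56, 1.33, 2.61 and 3.02 TMM-scaled CPM in GC B-like cells of p19-/- mice 1 to 3 and WT mice 1 and 2. In mature B-like cells of the same mice Ddx58 was at 42.2, 41.2, 33.5, 26.2 and 43.6, with no overlap and a log2 fold change of -4.10 (SE 0.25, edgeR adjusted p = 6.75e-15). All 5 immunity-related GTPases were lower, with a median of -1.84. Irgm1, which regulates the other GTPases, was at 6.20, 5.21, 4.65, 1.91 and 2.62 against 42.2, 23.3, 25.1, 25.0 and 28.1, a log2 fold change of -2.86 (SE 0.21, edgeR adjusted p = 8.58e-13). Igtp differed by -1.84 (SE 0.27, edgeR adjusted p = 9.77e-07) and Iigp1 by -2.86 (SE 0.73, edgeR adjusted p = 0.00153), the latter in 3 of 5 mice and from 22 UMIs in GC B-like and 23 in mature B-like cells. Without p19-/- mouse 3 the value for Iigp1 was -1.08 and was not called.

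The largest fitted difference rested on few UMIs and depends on the prior count of the fit. Rtp4 differed by -4.30 (SE 1.05, edgeR adjusted p = 0.000896) on the 1 and 8 UMIs given above, and Usp18, a protease that removes Isg15 from proteins, by -3.00 (SE 0.69, edgeR adjusted p = 0.000463) on 8 and 10 UMIs. Isg15 differed by -1.51 (SE 0.42, edgeR adjusted p = 0.00325), Ifnar2 by -1.70 (SE 0.18, edgeR adjusted p = 2.59e-09) and Ifnar1 by -1.51 (SE 0.16, edgeR adjusted p = 3.34e-09). Of the class I genes, B2m differed by -1.29 (SE 0.07, edgeR adjusted p = 2.13e-15), H2-D1 by -0.94 (SE 0.07, edgeR adjusted p = 2.34e-13) and H2-K1 by -0.92 (SE 0.08, edgeR adjusted p = 1.09e-11). Psmb8 was the 1 member called higher, by 0.17 (SE 0.07, edgeR adjusted p = 0.0438) and in 4 of 5 mice, a call lost when p19-/- mouse 1 or 3 or either WT mouse was left out (0.14 to 0.19). Psmb9 gave 0.03 (SE 0.08, edgeR adjusted p = 0.902), Irf7 0.28 (SE 0.25, edgeR adjusted p = 0.374) and Socs1 0.35 (SE 0.16, edgeR adjusted p = 0.0573), none of which passed. Stat2 differed by -0.78 (SE 0.16, edgeR adjusted p = 0.000127) and Irf1 by -0.68 (SE 0.12, edgeR adjusted p = 1.38e-05).

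Treg-like cells had higher levels than Tfh-like cells of 10 members, each in 5 of 5 mice, and a lower level of 1. Called higher were 2 of 13 type I genes, 7 of 17 interferon gamma genes and Ifnar1, against 9.09% of all genes, and Socs1 was the member called lower, against 7.49% of all genes. H2-K1 was higher by 0.44 (SE 0.08, edgeR adjusted p = 4.17e-05) in log2 fold change, H2-D1 by 0.38 (SE 0.07, edgeR adjusted p = 6.51e-05), B2m by 0.36 (SE 0.07, edgeR adjusted p = 0.000551) and Irf1 by 0.37 (SE 0.11, edgeR adjusted p = 0.0175). Bst2 was at 144, 96.9, 119.8, 77.2 and 73.8 TMM-scaled CPM in Treg-like cells of p19-/- mice 1 to 3 and WT mice 1 and 2 and at 59.8, 49.7, 49.4, 36.5 and 47.0 in their Tfh-like cells, a difference of 1.05 (SE 0.19, edgeR adjusted p = 8.80e-05). Irgm2 was higher by 1.17 (SE 0.32, edgeR adjusted p = 0.00803) and Igtp by 0.60 (SE 0.18, edgeR adjusted p = 0.0194). Ifnar1 was higher by 0.71 (SE 0.15, edgeR adjusted p = 0.000792) and Isg20 by 0.64 (SE 0.17, edgeR adjusted p = 0.00864). Socs1, at 181, 111, 132, 94.9 and 155 against 247, 252, 253, 231 and 235, was lower in every mouse, with a log2 fold change of -0.86 (SE 0.14, edgeR adjusted p = 2.18e-05). Tapbp, which bridges class I molecules to the peptide transporter, was the remaining member called higher, by 0.42 (SE 0.09, edgeR adjusted p = 0.00158). Irf7, Stat2, Isg15 and Ifnar2 gave -0.03, 0.23, 0.36 and -0.07 and were not called. Irgm2 lost its call without p19-/- mouse 3 (0.92) or WT mouse 2 (1.12), and Isg20 without WT mouse 1 (0.61).

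CD8 T-like cells, 39 to 65 per mouse, differed from Tfh-like cells in 14 members, 10 higher and 4 lower, against 12.6% and 14.8% of all genes. Ifi47, an immunity-related GTPase, was at 235, 350.0, 232, 192 and 249.6 TMM-scaled CPM in CD8 T-like cells of p19-/- mice 1 to 3 and WT mice 1 and 2. Tfh-like cells of those mice had Ifi47 at 96.2, 116, 98.3, 92.9 and 127, lower in every mouse, and the difference was 1.23 (SE 0.16, edgeR adjusted p = 3.86e-07). Of the type I genes, Usp18 was higher by 2.63 (SE 0.54, edgeR adjusted p = 0.000257), Ifit2 by 2.22 (SE 0.57, edgeR adjusted p = 0.00318), Bst2 by 1.73 (SE 0.22, edgeR adjusted p = 2.09e-07) and Ddx58 by 0.90 (SE 0.26, edgeR adjusted p = 0.00887). Igtp was higher by 0.81 (SE 0.23, edgeR adjusted p = 0.00793), Psmb10 by 0.57 (SE 0.13, edgeR adjusted p = 0.000597), B2m by 0.62 (SE 0.08, edgeR adjusted p = 7.89e-08), Irf1 by 0.65 (SE 0.13, edgeR adjusted p = 0.000241) and Ifnar1 by 0.84 (SE 0.20, edgeR adjusted p = 0.00185). Lower were Isg20 at -2.13 (SE 0.38, edgeR adjusted p = 3.80e-05), Oas1a, a sensor of double-stranded RNA, at -1.29 (SE 0.48, edgeR adjusted p = 0.0432), Socs1 at -0.95 (SE 0.18, edgeR adjusted p = 9.01e-05) and Psmb9 at -0.27 (SE 0.10, edgeR adjusted p = 0.0367). H2-K1, H2-D1, Irf7, Stat2, Isg15 and Ifnar2 were not called, at 0.11, 0.07, 0.36, 0.69, 0.12 and 0.30. Oas1a (-1.34 to -1.14) and Psmb9 (-0.29 to -0.20) lost their calls when any p19-/- mouse or WT mouse 2 was left out, Ifit2 without WT mouse 2 (1.90) and Ddx58 without p19-/- mouse 2 (0.64). When cells holding any UMI of another lineage's markers were removed, 103 CD8 T-like cells were left and 9 of 27 tested members were called. Over all genes 1186 were called then, against 1201 higher and 1410 lower with those cells. The CD8 T-like class joined a cluster led by Ccl5 and Gzmk with another, and the first made up 12 of 65 and 16 of 50 cells in the WT mice and 19 of 49, 22 of 47 and 8 of 39 in the p19-/- mice.

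Against mature B-like cells, myeloid-like cells were higher in 10 of 13 tested type I genes and lower in none, while the interferon gamma genes split into 6 higher and 6 lower of 17. Over all genes 25.6% were higher and 27.6% lower. The median log2 fold change was 2.02 for type I genes and -0.08 over all genes. Irf7 was at 126, 67.0, 193, 88.2 and 81.4 TMM-scaled CPM in myeloid-like cells of p19-/- mice 1 to 3 and WT mice 1 and 2 and at 22.7, 7.17, 16.0, 16.6 and 15.5 in their mature B-like cells, a difference of 2.74 (SE 0.26, edgeR adjusted p = 1.73e-10). Oas1a differed by 4.60 (SE 0.52, edgeR adjusted p = 7.06e-09), Rtp4 by 3.54 (SE 0.61, edgeR adjusted p = 1.19e-05), Usp18 by 2.83 (SE 0.52, edgeR adjusted p = 2.47e-05) and Ifih1, the RNA sensor MDA5, by 2.75 (SE 0.56, edgeR adjusted p = 9.80e-05). Ifnar2 was higher by 2.78 (SE 0.17, edgeR adjusted p = 2.47e-15), Ifnar1 by 0.65 (SE 0.19, edgeR adjusted p = 0.00525), Isg15 by 2.02 (SE 0.41, edgeR adjusted p = 0.000120) and Stat2 by 0.78 (SE 0.19, edgeR adjusted p = 0.00110). Irf1, B2m and H2-D1 were higher by 0.72 (SE 0.14, edgeR adjusted p = 7.65e-05), 0.43 (SE 0.08, edgeR adjusted p = 1.44e-05) and 0.37 (SE 0.07, edgeR adjusted p = 2.50e-05), and H2-K1 gave -0.09 (SE 0.08, edgeR adjusted p = 0.335). The other 3 interferon gamma genes called higher were the GTPases Irgm2 at 2.73 (SE 0.40, edgeR adjusted p = 6.76e-07), Iigp1 at 2.70 (SE 0.57, edgeR adjusted p = 0.000189) and Irgm1 at 0.89 (SE 0.22, edgeR adjusted p = 0.00107). The genes lower in myeloid-like cells supply peptides, apart from Socs1 at -1.48 (SE 0.27, edgeR adjusted p = 2.10e-05). Their log2 fold changes were -0.77 for Psmb9, -0.75 for Psmb8, -0.65 for Tap2, -0.34 for Psmb10 and -0.33 for Tap1. With DESeq2 size factors Psmb10 and Tap1 gave -0.21 each and were not called. Psmb10 also lost its call without either WT mouse (-0.33 to -0.22) and Tap1 without p19-/- mouse 2 or either WT mouse (-0.32 to -0.25). With cells holding other lineages' markers removed, 11 of 27 tested members were called, against 24 with them. Over all genes 2621 were called then, against 2440 higher and 2630 lower with those cells. Without those cells Socs1 was at -0.23 (edgeR adjusted p = 0.758), Psmb9 at -0.34 (edgeR adjusted p = 0.112), Tap1 at -0.11 (edgeR adjusted p = 0.738) and Rtp4 at 2.01 (edgeR adjusted p = 0.0925), and none of the 4 was called.

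GC B-like cells were themselves uneven. They lay in 5 clusters, made without the 39 genes, so the values are a description. Cluster 3, led by Rgs13 and Il4i1, had summed immunity-related GTPase levels of 125, 113 and 116 (p19-/-) and 71.4 and 103 (WT), in CPM of all UMIs. Cluster 1, led by histone genes of S phase, had 39.7, 68.6 and 36.1 (p19-/-) and 25.1 and 21.9 (WT). Each mouse was higher in cluster 3 than in cluster 1. Type I genes summed to 181, 125 and 181 (p19-/-) and 146 and 164 (WT) CPM in cluster 3 and 143, 100.01 and 106 (p19-/-) and 102 and 95.8 (WT) in cluster 1, with the same order in each mouse and the genotypes overlapping in cluster 3. Class I and loading genes summed to 4139.9 to 5024 CPM in cluster 3, 3848 to 4861 in cluster 12 (Ung, Cdc6), 4046 to 4671 in cluster 5 (Cdc20, Ccnb1), 3421 to 4097 in cluster 1 and 3492 to 4033 in cluster 10 (Gm26917, Lpp). These are shares of RNA, and cells of cluster 1 held more RNA. The median ratio of a cell's UMIs to its mouse's median was 3.01 in cluster 1 and 1.67 in cluster 3. Levels per cell were not compared between the clusters, and their order may differ. In clusters 1, 3 and 5 all p19-/- mice had a higher class I sum than both WT mice, and in clusters 10 and 12 the genotypes overlapped. The mice drew on these clusters unevenly, with cluster 3 giving 44 of 256, 86 of 263 and 286 of 990 GC B-like cells in p19-/- mice 1 to 3 and 398 of 1144 and 122 of 498 in WT mice 1 and 2.

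**Figure D3:**
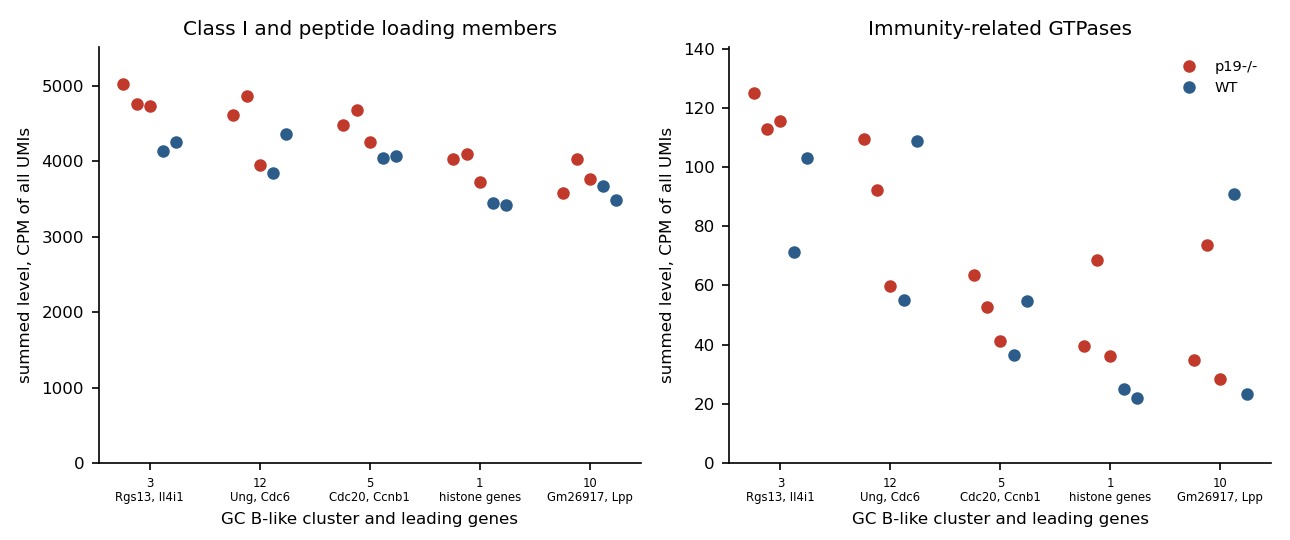
Summed class I and peptide loading genes (left) and immunity-related GTPases (right), in CPM of all UMIs, in the 5 GC B-like clusters named by leading genes, 1 point per mouse, red for p19-/- and blue for WT. In cluster 3 the p19-/- mice lie at 5024, 4761 and 4730.5 on the left, above both WT mice, and in clusters 10 and 12 the genotypes overlap there.

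No member was called between the genotypes in any of the 6 classes. Tested members numbered 27 in GC B-like, 25 in mature B-like, 32 in Tfh-like, 30 in Treg-like, 23 in CD8 T-like and 28 in myeloid-like cells, and an edgeR adjusted p under 0.05 was reached by 0.0190%, 0.0809%, 0.638%, 0.608%, 0.00% and 0.145% of all genes in these classes. DESeq2's Wald test called 0 members as well. At an unadjusted p under 0.05, 9, 2, 3, 2, 1 and 8 members passed, against 8.67%, 4.86%, 10.1%, 7.65%, 4.36% and 7.52% of all genes. Counts in the mature B-like and the 3 T cell classes are thus near the background. Members at or near 0 UMIs were not tested, and the genotype values of those tested are descriptions unless a call is given. With 3 against 2 mice, an exact two-sided rank-sum test could not go below 0.2 for a single value.

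**Figure D4:**
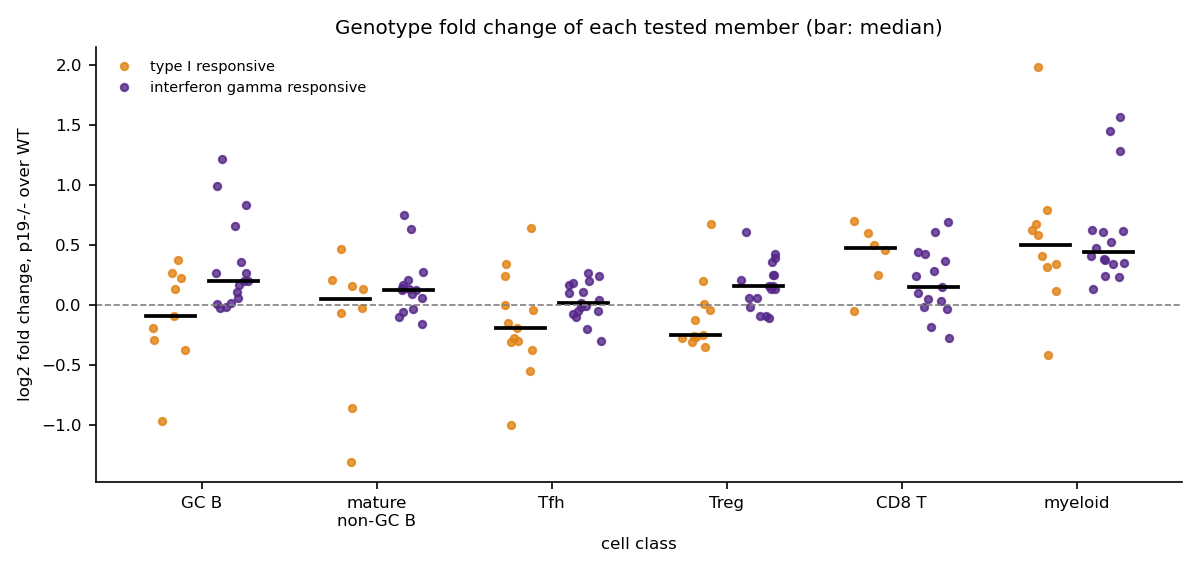
Log2 fold change of p19-/- over WT for each tested type I gene (orange) and interferon gamma gene (purple) in each cell class, with black bars at the medians and a dashed line at 0. In GC B-like and myeloid-like cells the interferon gamma medians are 0.20 and 0.44, and no point was called.

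In GC B-like cells most interferon gamma genes had a higher mean in p19-/- mice. Of 16 tested, 14 had a log2 fold change above 0, as had 4 of 9 type I genes and 51.3% of all genes. The medians were 0.20 and -0.09, against 0.01 over all genes. The type I median turned positive with a replicate block (0.13), with sex as a covariate (0.031), without WT mouse 1 (0.042) and without cells holding other lineages' markers (0.10). Of the interferon gamma genes 7 had an unadjusted p under 0.05 with p19-/- higher, against 4.76% of all genes, and 9 did not overlap between genotypes with p19-/- higher, against 13.9%. The genes were measured in the same 5 mice, so their count is not a count of independent results.

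The lowest p-values in GC B-like cells belonged to Irgm1, Nlrc5, Igtp, H2-K1 and Irf1. Irgm1 was at 6.02, 5.04 and 4.53 in p19-/- mice 1, 2 and 3 and 1.85 and 2.55 in WT mice 1 and 2 in TMM-scaled CPM, from 21, 20 and 49 UMIs against 19 and 20. All 3 p19-/- mice lay above both WT mice, and the log2 fold change was 1.22 (SE 0.29, edgeR adjusted p = 0.369). Nlrc5, the transactivator of MHC class I genes, was at 21.8, 15.9 and 16.3 (p19-/-) and 11.8 and 10.6 (WT), without overlap, at 0.66 (SE 0.18, edgeR adjusted p = 0.455). Igtp was at 7.17, 9.07 and 6.93 (p19-/-) and 2.82 and 4.98 (WT), again without overlap, at 0.99 (SE 0.29, edgeR adjusted p = 0.474). Irf1 was at 60.8, 49.1 and 54.5 (p19-/-) and 40.8 and 44.6 (WT), a fold change of 0.36 (SE 0.12, edgeR adjusted p = 0.482). The 4 tested GTPases were all above 0, with a median of 0.91. Without cells holding other lineages' markers, Irgm1 was at 1.05, Nlrc5 at 0.91, Igtp at 1.51 and Irf1 at 0.65, none called. Irgm1, Irgm2 and Igtp averaged 4.12, 2.37 and 6.38 CPM over the 5 mice and Ifi47 48.1 CPM.

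Among class I genes in GC B-like cells, H2-K1 was at 914, 886 and 809 (p19-/-) and 703 and 745 (WT) in TMM-scaled CPM. All p19-/- mice were above the WT mice, and the fold change was 0.26 (SE 0.09, edgeR adjusted p = 0.482). H2-D1 was at 939.9, 992 and 898 (p19-/-) and 803 and 836 (WT), at 0.20 (SE 0.08, edgeR adjusted p = 0.551), and B2m at 711, 711 and 699 (p19-/-) and 594 and 634 (WT), at 0.20 (SE 0.08, edgeR adjusted p = 0.534). Neither overlapped between genotypes. The immunoproteasome subunits overlapped, with Psmb8 at 0.02, Psmb9 at 0.01 and Psmb10 at -0.01. Stat2, the neighbour of Il23a, was at 22.4, 19.9 and 20.5 (p19-/-) and 17.9 and 14.2 (WT), at 0.37 (SE 0.15, edgeR adjusted p = 0.551). Of the type I genes Irf7 was at 17.5, 17.9 and 17.2 (p19-/-) and 21.6 and 18.3 (WT), at -0.19 (SE 0.13, edgeR adjusted p = 0.700), and Isg15 at 2.29, 5.04 and 6.66 (p19-/-) and 6.62 and 6.38 (WT), overlapping, at -0.37 (SE 0.34, edgeR adjusted p = 0.767). The receptor chain Ifnar1 gave 0.41 (SE 0.18, edgeR adjusted p = 0.575) and Ifnar2 0.20 (SE 0.32, edgeR adjusted p = 0.877).

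**Figure D5:**
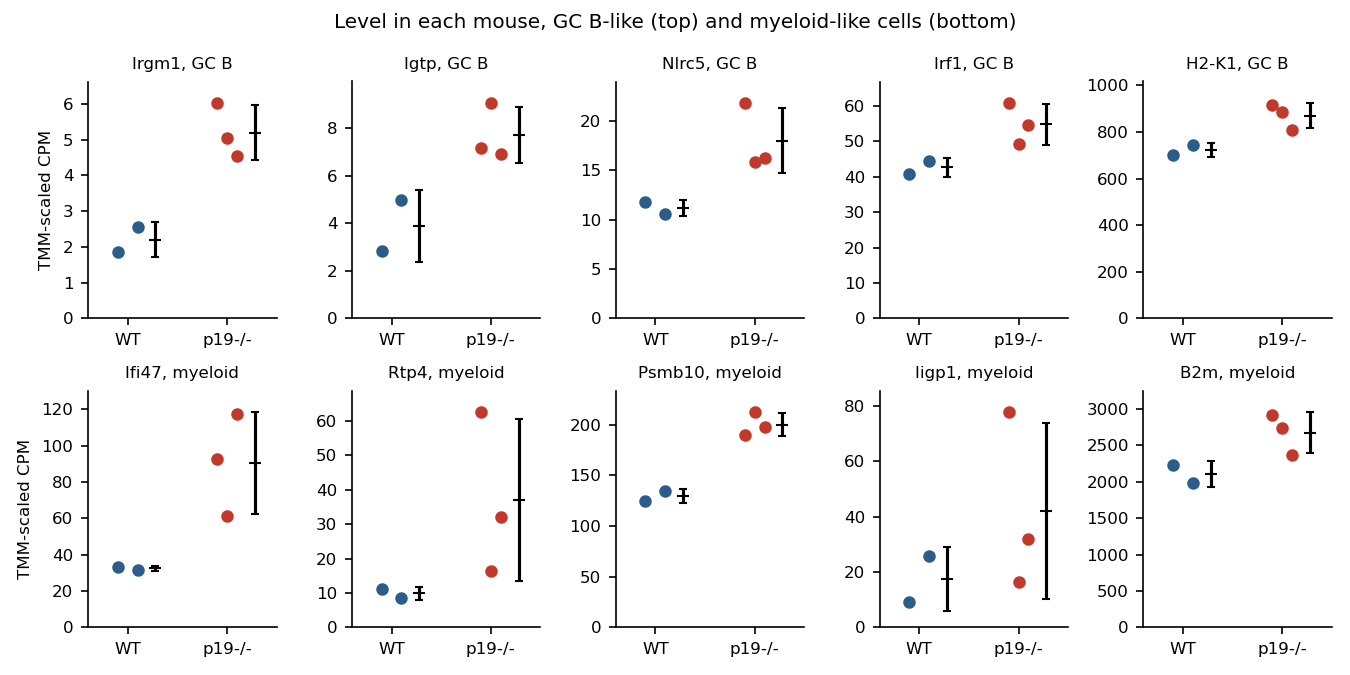
Level (TMM-scaled CPM) of 5 genes in GC B-like cells (top) and 5 in myeloid-like cells (bottom) in each WT (blue) and p19-/- mouse (red), with the mean and SD of each genotype in black. Irgm1 in GC B-like cells is at 1.85 and 2.55 in WT mice, below all p19-/- mice, and Iigp1 in myeloid-like cells overlaps.

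In mature non-GC B-like cells 11 of 15 interferon gamma genes and 4 of 8 type I genes were above 0, against 49.5% of all genes, and medians of 0.13 and 0.05. Socs1 had the lowest p, at 85.6, 77.6 and 61.7 in p19-/- mice 1, 2 and 3 and 40.9 and 46.2 in WT mice 1 and 2. The genotypes did not overlap, and the fold change was 0.75 (SE 0.20, edgeR adjusted p = 0.938). Isg15 was at 11.8, 9.50 and 7.46 (p19-/-) and 15.1 and 29.4 (WT), from 8, 6 and 11 UMIs against 14 and 35. It was lower in each p19-/- mouse, at -1.30 (SE 0.40, edgeR adjusted p = 0.953). Stat2 was at 33.9, 34.8 and 32.5 (p19-/-) and 26.9 and 21.8 (WT), at 0.47 (SE 0.23, edgeR adjusted p = 0.953). H2-K1, H2-D1 and B2m gave 0.15, 0.13 and 0.13, each with all p19-/- mice above the WT mice. Without cells holding other lineages' markers, which left 203 of 637, the values were -0.022, 0.084 and 0.016, and Irf1 was at 0.78. Nlrc5 gave 0.63 (SE 0.33, edgeR adjusted p = 0.953), Isg20 -0.86 (SE 0.40, edgeR adjusted p = 0.953) and Irf1 0.27 (SE 0.23, edgeR adjusted p = 0.972). Irf7, Ifnar1 and Ifnar2 gave -0.02, -0.21 and 0.28.

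In Tfh-like cells 9 of 17 interferon gamma genes (median 0.02) and 4 of 13 type I genes (median -0.19) were above 0, against 50.8% of all genes. Of the 9 class I and loading genes 3 were above 0 and 6 below, with a median of -0.01. Rtp4 was at 12.7, 14.5 and 6.71 in p19-/- mice 1, 2 and 3 and 21.3 and 22.8 in WT mice 1 and 2. It was lower in all p19-/- mice, with a fold change of -1.0 (SE 0.29, edgeR adjusted p = 0.246), and without the filter on low counts its edgeR adjusted p was 0.0271. That setting called 255 genes in all, against 58 with the filter. Tapbp was at 195, 186 and 161 (p19-/-) and 198 and 244 (WT), at -0.30 (SE 0.12, edgeR adjusted p = 0.446). Ddx58, Bst2 and Irf1 gave -0.37 (SE 0.17, edgeR adjusted p = 0.490), 0.34 (SE 0.16, edgeR adjusted p = 0.508) and 0.25 (SE 0.12, edgeR adjusted p = 0.529). Without cells holding other lineages' markers the Rtp4 value was -0.96.

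Treg-like cells placed 13 of 17 interferon gamma genes above 0 (median 0.16) and 3 of 11 type I genes (median -0.25), against 50% of all genes. Bst2 was one of the 3, at 167, 113 and 136 in p19-/- mice 1, 2 and 3 and 88.6 and 85.2 in WT mice 1 and 2. The p19-/- mice were all higher, with a fold change of 0.68 (SE 0.19, edgeR adjusted p = 0.175), which passed without p19-/- mouse 2 (0.77, edgeR adjusted p = 0.0399). Without that mouse 83 genes passed in all, against 48 with it. The Bst2 fold change was 0.92 without cells holding other lineages' markers. Irgm1 was at 60.3, 67.8 and 47.4 (p19-/-) and 26.6 and 45.6 (WT), without overlap, at 0.61 (SE 0.26, edgeR adjusted p = 0.586), and all 5 GTPases were above 0, with a median of 0.40. Iigp1, Isg20 and H2-D1 gave 0.42 (SE 0.25, edgeR adjusted p = 0.795), -0.31 (SE 0.17, edgeR adjusted p = 0.777) and 0.16 (SE 0.10, edgeR adjusted p = 0.819). Of the 9 class I and loading genes 5 were above 0 and 4 below, with a median of 0.06.

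CD8 T-like cells placed 11 of 15 interferon gamma genes (median 0.15) and 5 of 6 type I genes (median 0.48) above 0, against 49.7% of all genes. Of the 9 class I and loading genes 5 were above 0 and 4 below, with a median of 0.03. Socs1 was at 151, 127 and 139 in p19-/- mice 1, 2 and 3 and 98.3 and 84.0 in WT mice 1 and 2, without overlap. Its fold change was 0.61 (SE 0.25, edgeR adjusted p = 0.995). Igtp gave 0.70 (SE 0.32, edgeR adjusted p = 0.995), Bst2 0.60 (SE 0.30, edgeR adjusted p = 0.995), Irf1 0.45 (SE 0.28, edgeR adjusted p = 0.995) and Tap1, a chain of the peptide transporter, 0.43 (SE 0.27, edgeR adjusted p = 0.995). A single UMI is worth several CPM in this class, and values of the rarer genes rest on few molecules. Without cells holding a UMI of the B lineage or macrophage and monocyte lists, Ly6c2 included, the values were 1.31 for Socs1, 1.64 for Igtp, 0.61 for Bst2, 0.83 for Irf1 and 1.35 for Tap1, none called.

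In myeloid-like cells 16 of 16 interferon gamma genes and 9 of 10 type I genes were above 0, against 50% of all genes, and medians of 0.44 and 0.50. The member below 0 was Irf9. Of the interferon gamma genes 6 had an unadjusted p under 0.05 with p19-/- higher, against 4.0% of all genes, and 8 did not overlap with p19-/- higher, against 10.9%. Ifi47 was at 92.9, 61.3 and 117 in p19-/- mice 1, 2 and 3 and 33.5 and 31.4 in WT mice 1 and 2, from 43, 15 and 22 UMIs against 18 and 11. All p19-/- mice were above both WT mice, and the fold change was 1.45 (SE 0.34, edgeR adjusted p = 0.137). Rtp4 was at 62.6, 16.3 and 32 (p19-/-) and 11.2 and 8.57 (WT), but from only 29, 4 and 6 UMIs against 6 and 3, at 1.98 (SE 0.62, edgeR adjusted p = 0.336). Psmb10, the remaining immunoproteasome subunit, was at 190.1, 212 and 197 (p19-/-) and 125 and 134 (WT), without overlap, at 0.63 (SE 0.22, edgeR adjusted p = 0.432). Iigp1 was at 77.7, 16.3 and 32 (p19-/-) and 9.29 and 25.7 (WT), from 36, 4 and 6 UMIs against 5 and 9. Its genotypes overlapped, and the fold change was 1.57 (SE 0.60, edgeR adjusted p = 0.526). Without p19-/- mouse 1 Iigp1 no longer passed the filter on low counts.

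Class I genes in myeloid-like cells had fold changes between 0.35 and 0.38 without passing. Without cells holding other lineages' markers these were 0.27 for B2m, 0.23 for H2-D1 and 0.20 for H2-K1. B2m was at 2919.8, 2745 and 2368 (p19-/-) and 2236 and 1983 (WT), without overlap, at 0.35 (SE 0.14, edgeR adjusted p = 0.547). H2-D1 was at 2695, 3133 and 2309 (p19-/-) and 2099 and 2146 (WT), also without overlap, at 0.36 (SE 0.14, edgeR adjusted p = 0.555), and H2-K1 at 1948, 2002 and 1333 (p19-/-) and 1498 and 1212 (WT), overlapping, at 0.38 (SE 0.18, edgeR adjusted p = 0.674). Irf1 and Stat2 gave 0.47 (SE 0.25, edgeR adjusted p = 0.729) and 0.41 (SE 0.30, edgeR adjusted p = 0.856), both without overlap. Irf7, Isg15, Ifnar1 and Ifnar2 overlapped, at 0.59, 0.32, 0.26 and 0.24. Without cells holding other lineages' markers Stat2 was at 0.16, Irf7 at 0.36, Ifnar1 at 0.024 and Ifnar2 at 0.0025. Isg15 ran from 22.9 to 149 CPM, and its sign turned without p19-/- mouse 1 (-1.13) or WT mouse 2 (-0.30).

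The makeup of the myeloid-like class differed between mice, and its part in the genotype values was not tested. Clusters 13 (C1qb, Marco), 14 (Vcam1, Spic) and 15 (Ace, Ear2), all macrophage or monocyte-like, and the dendritic-like cluster 16 gave 70, 82, 58 and 31 cells in WT mouse 1 and 22, 39, 21 and 19 in WT mouse 2. In p19-/- mouse 1 they gave 74, 28, 52 and 38 cells, in mouse 2 40, 18, 16 and 15, and in mouse 3 12, 18, 15 and 10. Cluster 14 thus made up a larger part of the WT cells than of those in p19-/- mice 1 and 2. Cells of cluster 13 held few UMIs. Their median ratio to the mouse's median was 0.18, under the 0.33 set as low. The cluster kept its name because 5 of its leading genes were macrophage or monocyte markers, and its values are less certain. Within cluster 15 the interferon gamma genes summed to 8635, 10569 and 8494 (p19-/-) and 8052 and 5929 (WT), in CPM of all UMIs, and within cluster 16 to 10279.6, 8581 and 7725 (p19-/-) and 7439 and 7339.8 (WT). In both the p19-/- mice lay above the WT mice, whereas in cluster 13, at 8293, 9759.6 and 6258 (p19-/-) and 6850.3 and 7167 (WT), and cluster 14, at 6476, 7291 and 5609.6 (p19-/-) and 5817 and 6685 (WT), the genotypes overlapped. Over the whole myeloid-like class, 10.9% of all genes were higher in all p19-/- mice than in both WT mice. That share was not computed within clusters, which hold cells of the same mice. T lineage markers in the class summed to 5.45 to 442 CPM and B lineage markers to 35.5 to 165, with p19-/- and WT mice overlapping in both.

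The difference in genotype effect between classes was tested directly in 3 pairs of classes, and no member was called. The shares of all genes called were 0.0508% for GC B-like against mature B-like cells, 0.167% for GC B-like against Tfh-like cells and 0.195% for Treg-like against Tfh-like cells. At an unadjusted p under 0.05, 3 of 26, 6 of 35 and 3 of 31 members passed, against 3.12%, 6.90% and 5.36% of all genes. Irgm1 had the lowest p, with a fold change in GC B-like cells larger than that in Tfh-like cells by 1.20 on the log2 scale (SE 0.32, edgeR adjusted p = 0.263). Socs1 differed by -0.77 (SE 0.20, edgeR adjusted p = 1.00) between the GC and the mature B-like classes, and Rtp4 by 1.31 (SE 0.41, edgeR adjusted p = 0.426) between Treg-like and Tfh-like cells.

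Other genes of the pathway gave a few calls. Only the 39 members were refitted with other settings or a mouse left out, so these calls have no such check. Cxcl9, a chemokine induced by interferon gamma, was higher in p19-/- myeloid-like cells, at 283, 57.2 and 133 (p19-/-) and 16.7 and 22.9 (WT) in TMM-scaled CPM, from 131, 14 and 25 UMIs against 9 and 8, with no overlap and a fold change of 3.12 (SE 0.55, edgeR adjusted p = 0.0306). It was the 1 gene called among 10 tested of 17 other interferon gamma targets in that class, of which 8 were above 0. Socs3, a feedback inhibitor induced chiefly through Stat3, was higher in p19-/- Tfh-like cells, at 77.5, 41.6 and 88.5 (p19-/-) and 18.2 and 28.8 (WT), a fold change of 1.56 (SE 0.28, edgeR adjusted p = 0.0227). The guanylate-binding protein genes Gbp8 and Gbp9 moved in opposite directions. In Tfh-like cells Gbp8 was at 34.7, 42.5 and 37.6 (p19-/-) and 1.88 and 3.48 (WT), a rise of 3.74 (SE 0.31, edgeR adjusted p = 7.02e-05), and Gbp9 at 28.1, 48.8 and 27.5 (p19-/-) and 74.0 and 88.9 (WT), at -1.27 (SE 0.21, edgeR adjusted p = 0.0107). Treg-like cells gave 2.10 (SE 0.40, edgeR adjusted p = 0.0141) for Gbp8 and -1.60 (SE 0.24, edgeR adjusted p = 0.00356) for Gbp9. In myeloid-like cells the same pair gave -0.49 and 0.90, neither called. Reads of these paralogs may have been split between them, which was not checked, so both values are uncertain.

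Of 13 other class I presentation genes, those above 0 numbered 13 (median 0.17) in GC B-like, 11 (median 0.18) in mature B-like, 6 (median -0.01) in Tfh-like, 9 (median 0.03) in Treg-like, 11 (median 0.16) in CD8 T-like and 13 (median 0.41) in myeloid-like cells, against 51.3%, 49.5%, 50.8%, 50%, 49.7% and 50% of all genes. None was called. Of 14 signalling genes the 1 called was Socs3 in Tfh-like cells, and of 26 other type I targets none was called in any class. The interferon genes themselves were rare. Ifnb1, Ifna4 and Ifnl3 had 0 UMIs in all 6 classes, and Ifng, named here after its values were seen, passed the count filter only in Tfh-like and CD8 T-like cells. Its counts were 65, 21 and 41 UMIs against 37 and 42 in p19-/- and WT Tfh-like cells and 32, 22 and 2 UMIs against 2 and 12 in CD8 T-like cells, and its fold changes of 0.48 (SE 0.28, edgeR adjusted p = 0.614) and 1.42 (SE 0.75, edgeR adjusted p = 0.995) were not called.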

How the data were processed

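The authors deposited, per the file headers, UMI counts per gene and cell barcode for 5 libraries of 10x 5' RNA, and Cell Ranger 3.0.2, STAR and mm10 are named in the submitters' processing notes. Barcodes with at least 200 genes and at most 10% mitochondrial UMIs were kept (9356 of 11355), and 156 doublets (1.67%) were removed with scanpy 1.11.5. Of the kept barcodes 45 occurred in more than 1 library. Cells were clustered (Leiden, resolution 1.0) without the described genes, and the division of the CD8 cluster and the marker score were set after seeing the data. Counts were summed per mouse and class and tested with edgeR 4.0.16 (TMM, filterByExpr, quasi-likelihood test, Benjamini-Hochberg adjustment over all genes, threshold 0.05). Alternatives were DESeq2 1.42.0, no filter, a replicate block, sex, leaving out each mouse, doublets, mitochondrial limit, resolution, and cells without other lineages' markers.

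The members and lists were chosen with earlier results of these data known. H2-K1, H2-D1, B2m, Irf1, Irf7, Stat2, Isg15, Ifnar1 and Ifnar2 were always named between classes. Between genotypes they were always named in GC B-like, mature B-like and myeloid-like cells. In the T cell classes they were named between genotypes only where among the lowest p. Also named were up to 5 members of lowest p per class between genotypes, and up to 6 of largest fold per direction between classes. Each animal gave 1 library, and the p-values measure the spread between these mice. Library totals ran from 7712457 to 18093053 UMIs, and floors and counting limits cover counting error only. The labels give no capture day, so batches were not examined. The fitting code was tested on simulated data. Of 2-fold genotype changes it called 77.6% in GC B-like, 73.1% in Tfh-like and 47.8% in Treg-like cells. The shares were 28.4% in CD8 T-like, 26.9% in myeloid-like and 19.4% in mature B-like cells. Of 1.5-fold changes 1.49% were called in myeloid-like and 31.3% in GC B-like cells. Changes of this size can thus go uncalled. The simulation gave all genes of a class the same spread, and the changed genes were drawn at random from those tested. The shares may therefore be lower for members with few UMIs or a wider spread. The genotype runs also gave 2 to 9 false calls per class.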

Additional observations from a re-analysis of the deposited data

How the results depend on the processing

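Among values of named members with 1 setting changed, 681 kept their direction and side of the threshold. Of the rest 2 changed sign, 4 gained a call and 14 lost one. With 1 mouse left out these numbers were 407, 6, 1 and 23. The sign changed for Ifnar2 in GC B-like cells without WT mouse 1 (-0.10; range -0.10 to 0.54), H2-K1 in mature B-like cells without cells holding other lineages' markers (-0.022), Irf7 in mature B-like cells at a mitochondrial limit of 5% (0.12) or with a mouse left out (-0.31 to 0.23), and in myeloid-like cells Isg15 (-1.13 to 1.83) and Ifnar1 (-0.022 to 0.74) with a mouse left out. Without the filter on low counts 1 member was called between genotypes in GC B-like cells (Irgm1), 1 in Tfh-like cells (Rtp4) and 3 in myeloid-like cells (Ifi47, Rtp4 and Rsad2), against 0 with it. The setting called 245, 255 and 118 genes in all in these classes, against 2, 58 and 8 with the filter. Without p19-/- mouse 2, 1 member was called in Treg-like cells (Bst2), among 83 genes in all, against 48 genes with all mice. The call that changed in myeloid-like cells (Rsad2) came without WT mouse 2, a fit that leaves 1 WT mouse. Without cells holding other lineages' markers 9 members were called for CD8 T-like over Tfh-like cells (14 with them) and 11 for myeloid-like over mature B-like cells (24 with them). Fewer cells were left, and 1186 and 2621 genes in all were called. With those cells 1201 genes were higher and 1410 lower in the first contrast, and 2440 higher and 2630 lower in the second. The cause of these changes was not tested.

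Median genotype fold changes moved as follows. For type I genes in GC B-like cells (-0.09) they were 0.13 with a replicate block, 0.031 with sex as a covariate, 0.10 without other-lineage cells and -0.29 to 0.042 with a mouse left out. In Treg-like cells (-0.25) the same settings gave -0.053, -0.059, -0.11 and -0.38 to -0.062. In mature B-like cells (0.05) the median was -0.85 with no filter and 0.21 at Leiden resolution 0.5, in Tfh-like cells (-0.19) it was -0.32 at the 5% limit, and in CD8 T-like cells (0.48) it was 1.09 without other-lineage cells. For interferon gamma genes the median without other-lineage cells was 0.13 in GC B-like, 0.084 in mature B-like and 0.54 in CD8 T-like cells, against 0.20, 0.13 and 0.15. It was 0.071 in mature B-like cells at resolution 0.5 and 0.075 in Treg-like cells at the 5% limit. With a mouse left out it ran from 0.050 to 0.14 in mature B-like, -0.018 to 0.15 in Tfh-like and 0.053 to 0.21 in Treg-like cells. Deviations of same-numbered mice from their genotype mean were little correlated (r -0.06 to 0.10). With so few mice per genotype this cannot decide whether the replicate numbers pair the mice. The replicate block called 0 members in every class.

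Thinned to 1000 UMIs, cells with a type I UMI made up 12.8% of GC B-like, 21.9% of mature B-like, 34.8% of Tfh-like, 44.1% of Treg-like, 34.8% of CD8 T-like and 40.4% of myeloid-like cells, and cells with a GTPase UMI 5.95%, 11.7%, 23.2%, 27.3%, 23.8% and 16.7%. GC B-like cells were lowest at both depths. Depth limits values in CD8 T-like cells, which number 250, in mature B-like cells, which number 637, and in myeloid-like cells, with a median of 1708 UMIs.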

Other observations

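Classes outside the comparisons also carried these genes, given here in CPM of all UMIs as means over the mice. In 39 erythroid-like cells the type I genes summed to 6407 CPM, of which Rsad2, an antiviral enzyme, made up 2779, Isg20 1837 and Isg15 1523. That class held only 4 to 11 cells and 16372 to 32871 UMIs per mouse, so its values are uncertain. B lineage markers summed to 3066 CPM in its cells of p19-/- mouse 3 and 4166 in those of WT mouse 2. Neutrophil-like cells, 62 in all, had Isg15 at 247.5 and Rtp4 at 174 CPM. In plasma cell-like cells Isg20 stood at 198 CPM and B2m at 18.5 UMIs per cell.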
